A study of Arabidopsis thaliana with 4 samples.

Results

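The peaks described here are the strong MYB67 binding peaks that hold few sites of the MYB67 motif. They were chosen by 2 deposited values, a fold enrichment of at least 8 and at most 4 motif sites (none included), among the peaks of the 5 nuclear chromosomes of Arabidopsis thaliana. The rule took 339 of 5338 nuclear peaks, in a list of 5390 peaks in all. It left 4692 nuclear peaks with as few sites and a fold below 8, called the weaker few-site peaks below, and 86 strong peaks with 5 or more sites. Because the fold and the number of sites chose the peaks, both are given as a description and carry no test.

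MYB67 is an R2R3 MYB transcription factor that has been linked to the phellem, the cork that seals thickened roots with suberin. R2R3 MYB proteins recognise short DNA words rich in A and C, known as AC elements, which stand in the promoters of many genes of phenylpropanoid and lignin synthesis. Several such words close together give a protein more places to sit, and binding at a single word can depend on its match and on the bases around it. Those bases were not examined here.

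The peaks come from DNA affinity purification sequencing (DAP-seq), in which a tagged transcription factor made in a cell-free extract is held on beads and mixed with sheared genomic DNA, and the DNA retained is sequenced. Binding is thus measured in vitro on DNA without chromatin. MYB67 carried a Halo tag, was made in wheat germ extract and met genomic DNA of Col-0, the genotype that all 4 libraries share. The protocol takes this DNA from leaf although the tissue label reads root, and there were 2 MYB67 libraries and 2 empty vector libraries with the Halo tag alone. All values belong to 1 peak list rather than to a library, so there was no spread between replicates and no test over libraries could be made. A fold enrichment is the authors' ratio of the signal at the peak summit to the background modelled there, and each motif site carries a q-value, which is smaller for a closer match.

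The sites counted are matches to the authors' motif of 10 positions. The words below are shown because they are the letters the site q-values measure. They combine the most frequent base of each position with either of the 2 frequent bases at positions 7 and 9, the divided positions of the core, and capitals mark the core from position 4 on. Position 3, before the core, was divided as well, with C in 50.2% and T in 47.8%, and is shown as C in all of them.
Word with T and C at the divided core positions: tccACCTACC
Word with T and A at the divided core positions: tccACCTAAC
Word with A and C at the divided core positions: tccACCAACC
Word with A and A at the divided core positions: tccACCAAAC
The first scored highest on the authors' matrix, 10.3 in natural log units, and the others scored 10.2, 9.52 and 9.38. In the matrix, T stood at position 7 in 68.9% and A in 30.4%, and position 9 was C in 53.2% and A in 46.1%. The motif header sets a score threshold of 7.04, which 183 of 1048576 possible words reach (0.0175%). The sites counted here were kept by a q-value up to 0.05 and not by that threshold, so these words are not the set that counts as a site. Which word a given peak holds is not in the lists, because a site is listed by the coordinates of its peak.

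Fold enrichment among the 339 strong few-site peaks ran from 8.03 to 22.7, with a median of 9.32 and quartiles of 8.65 and 10.8. The −log10 q of these peaks ran from 24.3 to 151, with a median of 33.1. They were wider than the weaker few-site peaks, with a median of 339 bp against 249 bp. Strong peaks made up 6.74% of all nuclear peaks with up to 4 sites and 28.0% of the 307 with more. Since few-site peaks are so much more numerous, they were still 79.8% of the 425 strong nuclear peaks.

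The fold and the p-value of a peak together fix how many fragments covered its summit, if the peak caller's usual formula was used. This reconstruction matched the listed −log10 p within 0.01 for 5333 of 5338 nuclear peaks, and for each of the 339 strong few-site peaks a single number of fragments did so. Their summits held 53 to 221 fragments, with a median of 67, against 16 to 166 and a median of 31 in the weaker few-site peaks. The modelled background lay between 4.50 and 10.0 scaled fragments, with a median of 4.68. It was at the lowest value in the list for 154 of the strong few-site peaks, whose median fold of 9.32 rested on a median of 61 fragments. The other 185 had nearly the same median fold, 9.29, from a median of 72 fragments, and a higher median −log10 q, 37.4 against 31.2. Peaks of equal fold thus differed in the number of fragments behind them, as the plot of fold against fragments shows.

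**Figure D1:**
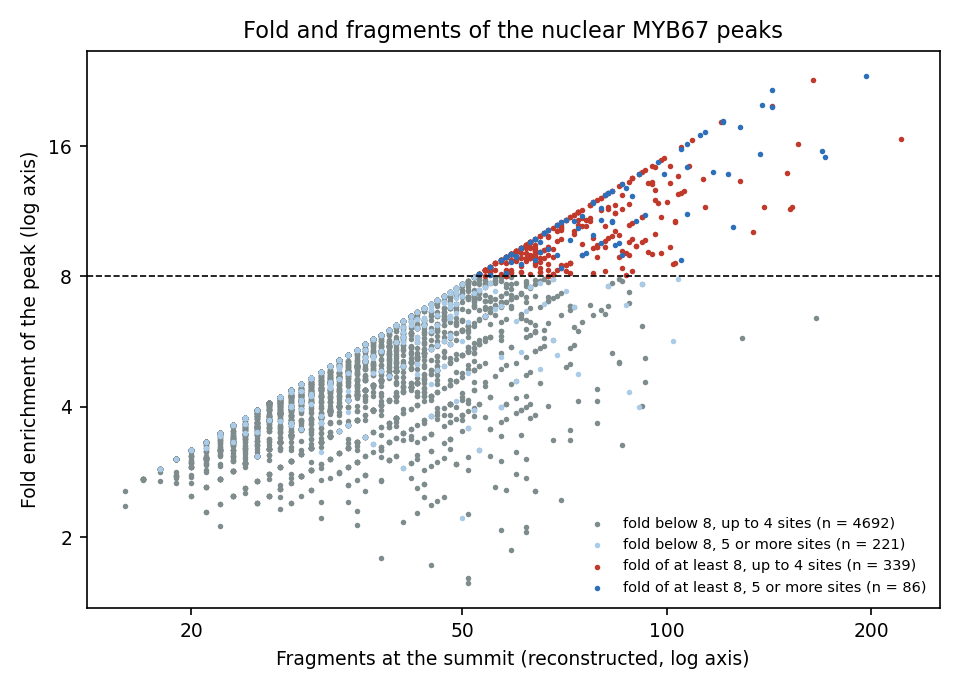
Each point is 1 nuclear peak; the horizontal axis gives the reconstructed number of fragments at its summit and the vertical axis its fold enrichment, both on log axes, with a dashed line at a fold of 8. The 339 strong few-site peaks (red) hold 53 to 221 fragments, and the straight upper edge is formed by peaks at the lowest modelled background.

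With so few fragments the threshold does not part the peaks sharply. At the lowest background, 1 fragment more or less moves the fold by 0.150. The 95% interval of the fold, from an exact Poisson interval on the fragments and for counting error only, lay wholly at or above 8 for 109 of the 339 peaks (32.2%). Of the weaker few-site peaks, 562 (12.0%) had an interval that reached 8 or more. The 3 strong few-site peaks nearest the threshold all had a fold of 8.03. They lay at chr1:30379893-30380180, with no gene and 54 fragments, and at AT1G10050 and ABCA7 (AT3G47780), with 67 fragments each. The 3 few-site peaks just below it all had a fold of 7.99, with 57 fragments and an interval of 6.09 to 10.3. They lay at chr3:16085461-16085775 without a gene, at AT5G66860, and at LBD29 (AT3G58190), a regulator of lateral root formation.

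The strongest few-site peak, at chr2:1728448-1728845 in TAIR10, had no assigned gene, 3 sites, 164 fragments and a fold of 22.7 (interval 19.4 to 26.4). The next lay at AT3G23300, with 4 sites and a fold of 19.8 (16.7 to 23.3), at chr3:8332501-8332885. KT1 (AT2G26650, also called AKT1), a potassium channel of root uptake, followed with 4 sites and a fold of 18.2 (15.1 to 21.7), at chr2:11335711-11336192. These 3 intervals overlapped, so their order is not fixed by the fragments.

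The peak with the highest −log10 q, 151, lay at chr3:18801886-18802324 without an assigned gene. It had the most fragments, 221, over the highest background among the strong few-site peaks, 10.0, and a fold of 16.6. Its 3 sites had a lowest q of 0.00819 and a second of 0.00911, the same 2 values as at the strongest peak. AT5G43690 reached a fold of 16.5 (13.6 to 19.9) with a single site of q 0.00656, the highest fold of any peak with 1 site. The remaining peaks of the 10 highest were AT5G27770 at 16.2, AT3G05050 at 15.9, KNAT7 at 15.0, AT3G18560 at 14.9 and TRN1 at 14.4. KNAT7 (AT1G62990) is a homeodomain regulator of secondary wall formation, and TRN1 (AT2G16950) is transportin 1, an importer of proteins into the nucleus. Of these 10 peaks, 2 had no gene.

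**Figure D2:**
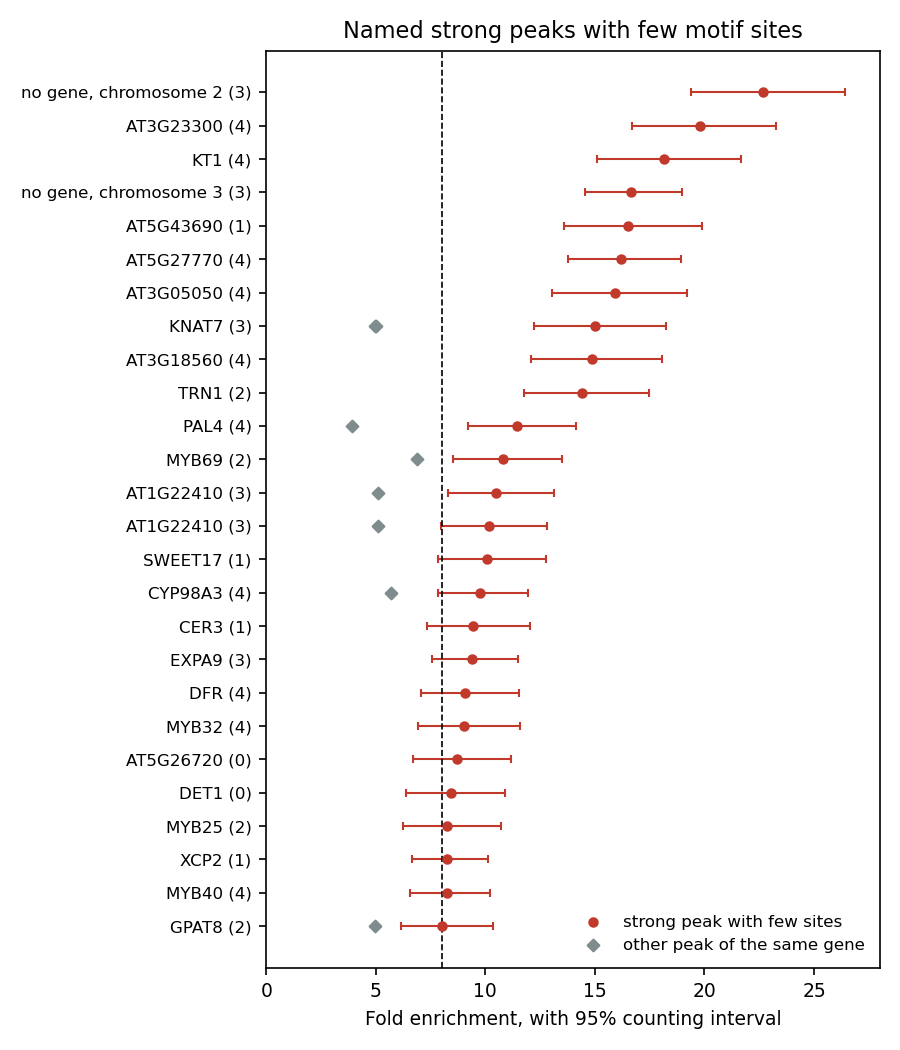
Red points give the fold enrichment of the strong few-site peaks named by rule, with 95% counting intervals as bars and the number of motif sites in brackets; grey diamonds give the folds of weaker peaks assigned to the same gene, and the dashed line marks a fold of 8. The intervals of the 10 highest peaks stay above 11, whereas that of GPAT8, at a fold of 8.03, runs from 6.14 to 10.3.

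More sites went with a larger share of strong peaks. Of the few-site peaks, 1.02% of those with no site were strong, 4.18% of those with 1 site, 4.71% with 2, 9.95% with 3 and 15.4% with 4. These shares describe how the 2 values of the rule go together and support nothing beyond that. The strong few-site peaks held 0 sites in 2 cases, 1 site in 58, 2 in 82, 3 in 120 and 4 in 77. Within the strong few-site peaks the median fold was 9.34 at 1 site, 9.05 at 2, 9.17 at 3 and 9.47 at 4. The rule cuts the fold at 8, so these medians cannot show whether fold goes with the number of sites. In the weaker few-site peaks the median fold was 4.09 at 1 site, 4.23 at 2, 4.38 at 3 and 4.83 at 4. Sites per 100 bp were also close, with a median of 0.802 against 0.787 in the weaker few-site peaks.

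The rule used the number of listed sites but not how well the best of them matched the motif. Both come from the same site list, and a peak without a site counts here as lacking a site of q up to 0.01. The motif is the authors' own for MYB67, and whether strong peaks weighed more in finding it was not tested. A site of q up to 0.01 stood in 209 of the 339 strong few-site peaks, 61.7% (95% Wilson interval 56.4 to 66.7%), and in 46.0% of the weaker few-site peaks (44.6 to 47.5%). Over all few-site peaks the share was 47.1%. The difference was 15.6 percentage points (Newcombe interval 10.1 to 20.8). These intervals treat peaks as independent draws and hold no spread between libraries. Strong peaks with 5 or more sites had such a site in 60.5%, and the difference from the strong few-site peaks, 1.19 points, had an interval of −9.83 to 12.9.

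The strong few-site peaks had the higher share at each number of sites. With 1 site, 35 of 58 strong peaks had a q up to 0.01 (60.3%) against 44.4% of 1330 weaker ones, a difference of 15.9 points (2.78 to 27.8). With 2 sites the shares were 61.0% and 49.0%, a difference of 11.9 points (0.854 to 22.1). With 3 sites they were 65.0% and 51.2%, a difference of 13.8 points (4.44 to 22.3), and with 4 sites 59.7% and 47.3%, a difference of 12.5 points (0.323 to 23.7). All 4 differences had the same sign, and none of their intervals reached 0.

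The second-best site was compared in the same way. It had a q up to 0.01 in 9 of 82 strong peaks with 2 sites (11.0%) against 5.73% of the weaker ones, a difference of 5.25 points (0.00780 to 13.9). With 3 sites it did so in 18 of 120 (15.0%) against 9.02%, a difference of 5.98 points (0.366 to 13.6). With 4 sites it did so in 15 of 77 (19.5%) against 9.93%, a difference of 9.55 points (1.57 to 20.1). The lower bounds at 2 and 3 sites lay close to 0.

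**Figure D3:**
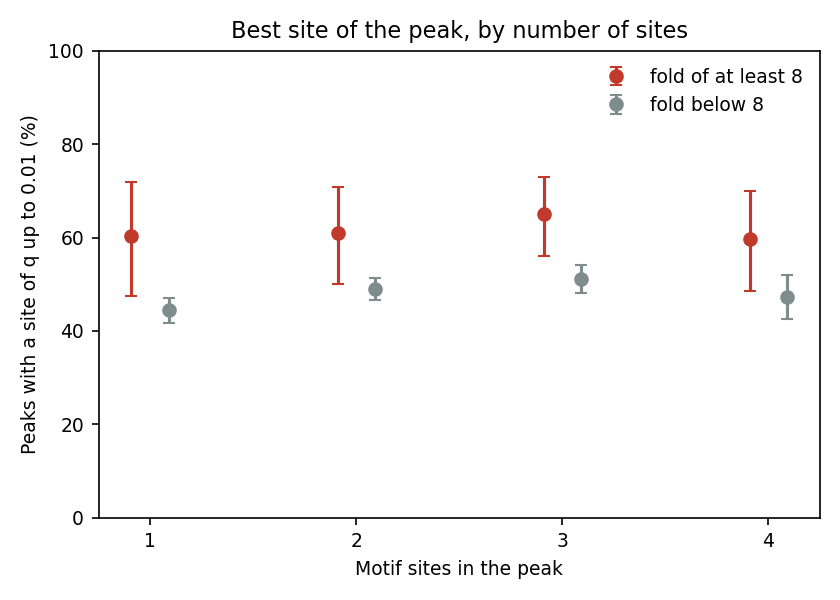
Points give the percentage of peaks whose best motif site has a q up to 0.01, by the number of sites in the peak, for peaks with a fold of at least 8 (red) and below 8 (grey), with 95% Wilson intervals as bars. The strong peaks stand at 59.7 to 65.0% and the weaker ones at 44.4 to 51.2%.

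The share climbed with fold below the threshold as well. It was 38.1% of 1846 few-site peaks with a fold below 4, 46.9% of 1575 at 4 to 5, 56.2% of 697 at 5 to 6 and 56.8% of 574 at 6 to 8. Above the threshold it was 60.3% of 224 peaks at 8 to 10 and 64.3% of 115 at 10 and over. The 4 highest bands overlapped in their intervals, and both bands below a fold of 5 had lower shares. Against only those weaker few-site peaks whose −log10 q was 10 or more, the difference shrank to 4.72 points, with an interval of −1.09 to 10.3. Peak width and fragments moved with fold too. Against weaker peaks at least 316 bp wide, the lower quartile of the strong ones, the difference was 10.5 points (3.97 to 16.7). Among peaks at the lowest background it was 15.9 points (7.73 to 23.7).

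**Figure D4:**
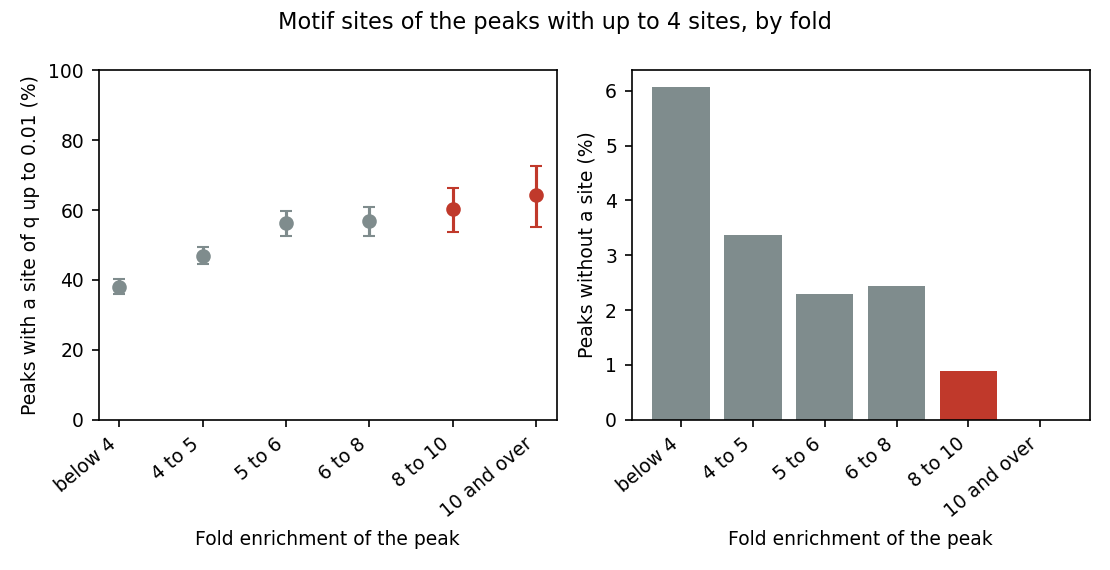
Left, the percentage of few-site peaks with a site of q up to 0.01 by band of fold enrichment, with 95% Wilson intervals; right, the percentage without any site, as bars from 0. Red bands belong to the strong few-site peaks; the left share runs from 38.1% below a fold of 4 to 64.3% at 10 and over, and the right one from 6.07% to 0.

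The fold of the 58 peaks with a single listed site ran from 8.11 at the lowest to 16.5 at AT5G43690. The lowest site q among them, 0.00462, occurred in 6 of the 58. By fold, the first of these was CLC-C (AT5G49890), an anion transporter of the vacuole, at chr5:20290029-20290363 with a fold of 12.0 (9.77 to 14.7). The next were ROPGEF11 (AT1G52240), an activator of ROP GTPases, at 9.92 (7.70 to 12.6), and FAD2 (AT3G12120), the oleate desaturase of the endoplasmic reticulum, at 9.63 (7.75 to 11.8). At the other end, SWEET17 (AT4G15920), a fructose transporter of the vacuole, had a fold of 10.1 (7.83 to 12.8) with a single site of q 0.0496, the highest q of any site in the strong few-site peaks.

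Only 2 strong peaks had no site at all, 0.590% of the strong few-site peaks against 4.16% of the weaker ones, a comparison that the rule itself bears on. They lay at AT5G26720, with a fold of 8.73 (6.70 to 11.2), and at DET1 (AT4G10180), a repressor of light responses in seedlings, with 8.42 (6.39 to 10.9). Both intervals reach below 8, so a strong peak without a site was not clearly present at this depth. At a fold of 10 and over, 0 of 115 peaks lacked a site, which allows a share of up to 2.61%.

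Another 22 peaks had sites only of q above 0.03, so that 24 of 339 (7.08%) had no site up to that q, against 13.4% of the weaker few-site peaks. The strongest of the 24, chosen after their values were seen, lay at chr5:13801737-13802072, with no gene, a fold of 12.5 (9.95 to 15.4) and sites of q 0.0444 and 0.0454. The next was AT4G03480, with a fold of 12.2 (9.68 to 15.1), 4 sites and a lowest q of 0.0326. Their intervals stay above 8.

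The authors' deposited table assigned a gene to 272 of the 339 strong few-site peaks, 80.2% (75.7 to 84.1%), and to 83.4% of the weaker ones. The difference of −3.20 points had an interval of −7.89 to 0.836, so a difference in the share with a gene was not detectable. Peaks without a gene were more frequent where peaks are sparse. In bins of 1 Mb with at most 35 nuclear peaks, 23 of 44 strong few-site peaks had a gene (52.3%) against 61.7% of the weaker ones. In denser bins the shares were 84.4% and 86.2%. The 67 peaks without a gene had a median fold of 9.44 against 9.19 for those with one, and 34 of them (50.7%) held a site of q up to 0.01 against 64.3%.

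Strong few-site peaks lay on all 5 nuclear chromosomes. They made up 6.20% of few-site peaks on chromosome 1, 6.29% on chromosome 2, 6.06% on chromosome 3, 7.53% on chromosome 4 and 7.67% on chromosome 5, with overlapping intervals. Another peak summit lay within 1 kb of 18 of them, 5.31% against 9.02% of the weaker few-site peaks, a difference of −3.71 points (−5.81 to −0.675). Within 5 kb the shares were 39.5% and 40.7%, and the interval of the difference, −6.43 to 4.30, held 0. The summit of a strong few-site peak lay closer to the middle of its peak, at a median of 3.39% of the width from the centre against 7.20%. The median number of fragments was 67 against 31, and its part in these 2 differences was not tested.

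The 272 peaks belonged to 271 genes, all of them protein-coding in the RefSeq table, which gave a symbol to 125. These were 0.987% of 27444 nuclear protein-coding genes. A second peak of any strength was assigned to 46 of the 271. By peak this was 47 of 272, 17.3%, against 17.2% for the weaker few-site peaks, and the difference of 0.0380 points had an interval of −4.17 to 5.11. The 51 other peaks of these genes had folds of 3.03 to 7.82, with a median of 4.97. Only AT1G22410 had 2 strong few-site peaks, at chr1:7910923-7911308 with a fold of 10.5 and at chr1:7914168-7914452 with 10.2. A weaker peak between them, at chr1:7911814-7912093, had a fold of 5.11. At KNAT7 the strong peak stood beside others with folds of 5.02 and 4.97.

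Among 107 genes of 5 pathways around the cell wall and its lipid and phenolic barriers, 49 had a peak (45.8%, beside 14.7% of all nuclear protein-coding genes) and 6 had a strong few-site peak. Another 6 had a strong peak with 5 or more sites, beside 66 of all 27444 nuclear protein-coding genes, and 37 had weaker peaks alone. The 6 of 107 genes with a strong few-site peak are 5.61%, beside the 0.987% of all nuclear protein-coding genes. Among genes with any peak, a strong few-site peak stood at 6 of 49 list genes, beside 271 of 4030 of all these genes. The lists were chosen with earlier results of these data known, and no test of the lists was made.

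In the list of phenylpropanoid and lignin synthesis, 2 of 24 genes had a strong few-site peak. PAL4 (AT3G10340) encodes a phenylalanine ammonia-lyase, the entry enzyme of the pathway, and had a fold of 11.5 (9.20 to 14.1) with 4 sites, at chr3:3202733-3203065. A further peak of PAL4 had a fold of 3.93. CYP98A3 (AT2G40890) encodes the hydroxylase that acts on coumaroyl shikimate, and had a fold of 9.74 (7.85 to 12.0) with 4 sites and a lowest q of 0.00527, at chr2:17062037-17062341. A second CYP98A3 peak had a fold of 5.68. Strong peaks with more sites stood at 4 other genes of this list and are no part of these counts.

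In the flavonoid list 1 of 19 genes had a strong few-site peak. It was DFR (AT5G42800), the reductase that leads to anthocyanins and proanthocyanidins, with a fold of 9.09 (7.05 to 11.5) and 4 sites at chr5:17165940-17166340. In the secondary wall list it was 1 of 20, XCP2 (AT1G20850), a cysteine protease of dying xylem cells. That list does not hold every gene of its pathway, and KNAT7, described above, is not in it. XCP2 reached 8.25 (6.65 to 10.1) with 1 site at the lowest single-site q, 0.00462. Its 89 fragments stood over a background above the upper quartile of 5.31, and its −log10 q, 40.3, was above the median of the strong few-site peaks while its fold was below it.

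In the cutin and wax list 2 of 26 genes had a strong few-site peak, and in both the sites matched weakly. CER3 (AT5G57800), needed for the alkanes of cuticular wax, had a fold of 9.46 (7.32 to 12.0) with 1 site of q 0.0437. GPAT8 (AT4G00400), an acyltransferase of cutin synthesis, had a fold of 8.03 (6.14 to 10.3) with 2 sites and a lowest q of 0.0302. A peak was assigned to 10 of the 18 suberin genes (55.6%, beside 14.7% of all genes), and a strong few-site peak to 0, which at a share of 0.987% over all genes is near the background. The highest fold in that list was 6.47, at FACT, which makes the alkyl caffeates of root wax and whose peak held 5 sites.

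Among families defined by gene symbol, 4 of 120 MYB genes had a strong few-site peak, beside 0.987% of all nuclear protein-coding genes. A peak of any strength was assigned to 23 of the 120, beside 14.7% of all genes. The families were chosen with earlier results of these data known, and no test of them was made. MYB69 (AT4G33450) stood highest with 10.8 (8.51 to 13.5) and 2 sites, beside a second peak of 6.90. MYB32 (AT4G34990), a repressor of phenylpropanoid genes, had 9.02 (6.91 to 11.6) and 4 sites, of which the lowest q was 0.0258. MYB25 (AT2G39880) had 8.27 and MYB40 (AT5G14340) 8.24, and both intervals reached below 7. HOS10 (AT1G35515), also named MYB8, falls outside the symbol rule and was picked after its value was seen. Its fold was 8.72, with 1 site of q 0.0326.

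Of the other families, the CYP genes had 1 such peak among 229, at CYP98A3, and 37 of them had a peak of any strength. The alpha-expansins, which loosen cell walls, had 1 among 23, at EXPA9 (AT5G02260) with a fold of 9.39 (7.57 to 11.5) and 3 sites. A peak of any strength was assigned to 8 of the 23. The SWEET sugar transporters had 1 strong few-site peak among 15 genes, at SWEET17, and 6 of the 15 had a peak of any strength. The ABCG genes, of which 20 of 42 had a peak, and the WRKY genes, of which 18 of 67 had one, had no strong few-site peak. The 79 NAC, 58 UGT, 37 HB, 25 ERF, 14 LAC and 3 PER genes had none either. These are families by symbol only, so the homeodomain gene KNAT7 is not among the HB genes. At 0.987% of all genes with a strong few-site peak and 14.7% with any peak, a count of 0 in families of this size is near the background. A single strong few-site peak in a family is too few to tell from that background.

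The following genes were chosen after their values were seen, to show what else the strong few-site peaks cover. ACLA-2 and ACLB-2, subunits of the ATP citrate lyase that makes cytosolic acetyl-CoA, had folds of 9.47 and 8.27. KCS10, a synthase of very long fatty acids, had 8.97, SK2, a shikimate kinase, 8.72, and ATMS1, a methionine synthase, 8.52. Among wall genes, PGSIP3, also named GUX2 and active on xylan, had 10.9, the xylosidase gene XYL1 9.17, and the cellulose synthase-like genes ATCSLB05 and CSLB06 9.11 and 8.72. Among genes of transport and nitrogen use, GSR 1, a cytosolic glutamine synthetase, had 13.8 with a single site, UMAMIT19 11.6, the metal transporter gene MTPB1 11.0 and the glucosinolate transporter gene GTR1 10.2. Regulators included the stomatal factor SPCH at 9.77, the auxin response factor ARF11 at 10.1 and the jasmonate repressor JAZ3 at 8.11. Among the genes of this paragraph, only PGSIP3, GSR 1, UMAMIT19, MTPB1 and ARF11 had an interval wholly above 8.

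Some strong few-site peaks had their complete set of site q-values in common with peaks elsewhere, a pattern noticed in the data. Of the peaks with 3 sites, 8 of 120 strong ones (6.67%) had all their q-values in common with another few-site peak, against 23 of 1086 weaker ones (2.12%). Of those with 4 sites, 4 of 77 strong (5.19%) and 4 of 423 weaker ones (0.946%) did. Sets of 2 q-values were not counted. These 12 strong peaks fell into 3 sets, and 8 of the 12 had no assigned gene, against 67 of all 339. Weaker peaks with a shared set often lacked a gene as well, 14 of the 23 with 3 sites and 4 of the 4 with 4 sites. The lack of a gene was thus not particular to the strong ones.

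The first set, with q-values of 0.00656, 0.0218 and 0.0383, held 5 peaks on 4 chromosomes, and the 4 strong ones all lacked a gene. Their folds were 13.2 at chr3:14835566-14835912, 12.0 at chr2:2685126-2685458, 9.60 at chr4:4988681-4989004 and 8.97 at chr5:10140135-10140411. The fifth, at AT4G07990, had a fold of 3.98 from 52 fragments over a background of 10.0. The second set, with q-values of 0.00911, 0.0179 and 0.0460, held 9 peaks on all 5 chromosomes with folds of 4.92 to 9.32, of which 4 were strong. The third set, with q-values of 0.0139, 0.0218, 0.0383 and 0.0413, held 5 peaks with folds of 5.97 to 10.5, of which 4 were strong. Peaks with the same listed sites thus differed in fold by up to 9.22. The sites are not placed within the peaks, so whether these peaks hold the same sequence was not tested.

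**Figure D5:**
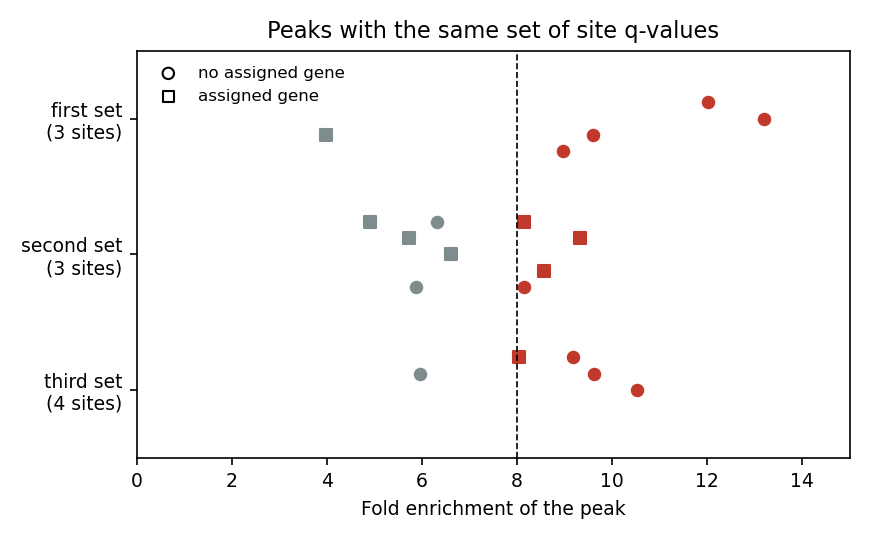
Each point is 1 peak of the 3 sets of 3 or 4 site q-values that a strong few-site peak has in common with another few-site peak; the horizontal axis gives fold enrichment, red points are strong and grey points weaker, circles have no assigned gene and squares have one, and points within a set are spread vertically by chromosome. The 4 strong peaks of the first set, at 8.97 to 13.2, are all circles.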

How the data were processed

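DAP-seq peaks of MYB67 were analysed from 1 deposited peak list of 2 MYB67 and 2 empty vector libraries. Per the submitters' processing notes, bedtools, FastQC, HOMER, MACS3 3.0.0a7, Picard 2.27.1, STAR 2.7.10a, Trimmomatic 0.39 and the build TAIR10 were used, with no roles stated. The pooling of libraries and the use made of the empty vector are not given in the sources used here, and each library's depth is unknown. The deposited list holds the fold, a ratio of signal to modelled background, and the −log10 p and −log10 q of each peak as the authors' files give them. The authors' deposited site list, kept at a q-value up to 0.05 per the file headers and name, gives 1 q-value per motif match and the coordinates of the whole peak.

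Sites were counted per peak, and positions are given from 1. A wider peak offers more sequence for sites. Fragments were reconstructed from fold and −log10 p with MACS's formula, and on 5330 simulated peaks 99.83% were recovered. The peaks were simulated with the same formula, so this checks the inversion and not the formula. Gene symbols came from a RefSeq table of TAIR10.1, whose coordinates were not used, so peaks were not placed in promoters or exons. Intervals on shares are Wilson, and on differences Newcombe, at 95%. No count of promoter motif letters was run. The peaks, gene lists and families were chosen with earlier results of these data known. Named genes are the 10 highest folds, the strong peaks without a site, list and family genes, genes with 2 such peaks, the 3 peaks on either side of the threshold and the 3 single-site peaks of lowest q. Alternatives changed the fold and site limits, the comparison peaks and the site q. Python 3.11.15, pandas 2.3.3 and SciPy 1.17.1 were used.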

Additional observations from a re-analysis of the deposited data

How the results depend on the processing

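Of 45 recomputed values, 36 stayed within the interval of the value reported, or within 1.5 times it for a count. Only the differences from the weaker few-site peaks have a direction, and 0 of them changed it. A fold of at least 7 gave 554 peaks and one of at least 10 gave 115, in place of 339. The list genes with a strong few-site peak went from 6 to 1 at a fold of at least 10 (PAL4) and to 3 at up to 3 sites. The share with a close site depends on what counts as close, at 85.5% up to a q of 0.02 and 10.6% up to 0.005, and its difference from the weaker peaks was then 10.0 and 3.69 points. Against weaker peaks whose −log10 q was 10 or more, the difference was 4.72 points (−1.09 to 10.3). The count of list genes and the comparison at the lowest background were added after the data were seen. No paired analysis was possible because no value in the files belongs to a single library. For the same reason leaving out a library could not be tried, and intervals hold counting error only. The fragments rest on a formula that no header states.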
